A study of Mus musculus with 48 samples.

Results

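A set of 5758 genomic regions was bound by HNF4α in mouse liver at every stage examined, out of 63925 regions bound at any stage (9.01%). HNF4α is a liver transcription factor encoded by Hnf4a. Binding was read from peak lists of chromatin immunoprecipitation with sequencing (ChIP-seq) at 5 ages: E15.5 and E18.5, in days of embryonic life, and P0.5, P14 and P60, in days after birth. A stage counted as bound where peaks of both replicates overlapped, and a region was a member when the merged regions of all 5 stages fell together. Members were thus chosen by the HNF4α peak positions themselves, from every HNF4α list, so counts, widths and HNF4α peaks of the members are a description and carry no test. The deposited C/EBPα peak lists and the RNA libraries were not used to choose the regions.

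All ChIP samples came from livers of wild-type F1 mice (C57Bl6/CBA), with 2 replicates per factor and stage. C/EBPα, encoded by Cebpa, is the second liver transcription factor of the study. RNA was sequenced from 2 HNF4a KO livers (HNF4a lox/lox / Alfp-Cre), 3 CEBPa KO livers (C/EBPa lox/lox / Alfp-Cre) and 3 wild-type (WT) livers of the same F1 strain. The mice were not treated, and the labels name both a standard and a high-fat chow without saying which animals had which. In the knockouts Cre recombinase is driven by the Alfp promoter, which is active in the hepatocyte and bile duct lineage, so other liver cells keep the gene. The sample labels give the RNA age as 60 days after birth, whereas the series text gives E18.5. In the WT libraries Afp, the fetal serum protein alpha-fetoprotein, took 2.23% to 3.47% of all normalized reads. Nothing in the labels says whether the RNA replicates were separate animals, so p-values measure the spread between these samples.

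HNF4α is a nuclear receptor that binds DNA as a homodimer, at direct repeats of a short hormone response element separated by a single base. In hepatocytes it is needed for the expression of clotting factors, apolipoproteins, bile acid enzymes, drug-metabolizing cytochromes P450 and gluconeogenic enzymes, and it forms a network with FOXA2 and C/EBPα. C/EBPα is a basic leucine zipper factor that recognizes its own palindromic sequence and is known in liver for metabolic genes and for restraint of growth.

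The 6 promoter stretches below show what HNF4-type sequences look like upstream of genes with a member at the start that fell in the HNF4a KO. Each is the 250 bases before a RefSeq gene start (GRCm38.p6), read 5′ to 3′ on the gene's strand, with the HNF4 motif in capitals.
Cyp3a25, chr5:146009619-146009868, minus strand: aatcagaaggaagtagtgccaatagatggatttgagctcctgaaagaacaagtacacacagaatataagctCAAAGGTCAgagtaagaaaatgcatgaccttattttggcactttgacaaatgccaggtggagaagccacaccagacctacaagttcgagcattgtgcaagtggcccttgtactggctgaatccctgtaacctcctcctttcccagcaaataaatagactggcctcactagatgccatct
Cyp2c69, chr19:39886770-39887019, minus strand: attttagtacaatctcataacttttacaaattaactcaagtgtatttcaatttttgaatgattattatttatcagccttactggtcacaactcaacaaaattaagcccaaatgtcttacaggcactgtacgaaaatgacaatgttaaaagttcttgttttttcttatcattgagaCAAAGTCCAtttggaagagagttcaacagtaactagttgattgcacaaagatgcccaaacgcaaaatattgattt
Agxt2, chr15:10358283-10358532, plus strand: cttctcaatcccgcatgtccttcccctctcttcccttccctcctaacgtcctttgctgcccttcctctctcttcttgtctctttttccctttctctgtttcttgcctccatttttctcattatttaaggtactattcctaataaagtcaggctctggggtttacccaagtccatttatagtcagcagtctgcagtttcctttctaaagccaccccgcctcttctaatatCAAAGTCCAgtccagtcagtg
Cyp3a11, chr5:145879855-145880104, minus strand: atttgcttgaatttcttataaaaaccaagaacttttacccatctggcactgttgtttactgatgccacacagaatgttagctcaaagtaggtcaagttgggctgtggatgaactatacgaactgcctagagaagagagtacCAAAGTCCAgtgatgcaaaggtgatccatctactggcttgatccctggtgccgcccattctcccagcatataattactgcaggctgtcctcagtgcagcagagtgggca
Aadat, chr8:60505874-60506123, plus strand: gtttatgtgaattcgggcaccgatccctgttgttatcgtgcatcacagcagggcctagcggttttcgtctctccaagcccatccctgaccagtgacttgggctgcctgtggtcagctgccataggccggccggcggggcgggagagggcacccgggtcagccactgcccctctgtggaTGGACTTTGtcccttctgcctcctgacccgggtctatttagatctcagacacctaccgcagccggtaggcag
Ftcd, chr10:76575398-76575647, plus strand: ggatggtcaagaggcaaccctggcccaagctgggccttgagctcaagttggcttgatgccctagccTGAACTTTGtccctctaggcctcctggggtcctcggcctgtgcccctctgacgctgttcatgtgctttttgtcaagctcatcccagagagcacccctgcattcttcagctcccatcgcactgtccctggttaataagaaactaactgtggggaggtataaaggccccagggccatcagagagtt

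The motifs searched were CAAAGTCCA, CAAAGGTCA and CAAAGTTCA on both strands, and 1.31% of 27025 genes in the RefSeq table had such letters in the 250 bases upstream of a start. The copies of Agxt2, Aadat and Cyp2c69 began 21, 72 and 75 bases before the start. Those of Cyp3a11, Ftcd and Cyp3a25 began 109, 184 and 179 bases before the start. A match is a description of letters and not of a binding site. The 6 were picked for holding the motif and do not stand for the rest. By the rule for naming genes, 1 of 13 candidates with a window held it, Cyp3a25. The other 5 were added after their values were seen, in order of their fall, from further genes with a member at the start that were lower in the HNF4a KO. Of all 163 candidates, 125 had a window and 14 of these held a motif. These candidates included known loci without a member at the start, such as Apob and Otc, and left out genes on chromosome 18. A window was searched only where its span to the gene end came within 1 kb of that in the gene table. The 13 and the 125 were counted before that limit, so they may include genes whose window was not searched. The 1.31% was counted without it. Of the 922 protein-coding genes with a member at the start, 727 (78.9%) had a window in the table, below the 80% set for a comparison of motif shares, so that check was void. Peaks use the build mm9, of which no genome was at hand, so the letters of the member regions themselves were not read.

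The genes behind these promoters encode enzymes. Cyp3a25, Cyp3a11 and Cyp2c69 are cytochromes P450, Agxt2 and Aadat are aminotransferases, and Ftcd breaks down histidine-derived formiminoglutamate. Their member regions in mm9 were chr5:146820801-146821982 for Cyp3a25, chr5:146691012-146693575 for Cyp3a11, chr19:39960807-39961843 for Cyp2c69, chr15:10287148-10288983 for Agxt2, chr8:62984267-62985672 for Aadat and chr10:76037752-76040413 for Ftcd. Each of these 6 regions covered the annotated start of its gene. Agxt2 was at 24 and 63 in HNF4a KO livers, at 235, 121 and 195 in CEBPa KO livers and at 736, 690 and 590 in WT livers. Ftcd was at 386 and 366 in HNF4a KO livers, at 1155, 708 and 3008 in CEBPa KO livers and at 6614, 4333 and 3157 in WT livers. In both genes the HNF4a KO libraries lay below every other library (log2 change -4.07 ± 0.49 SE, adjusted p = 0.000943 for Agxt2, and -3.57 ± 0.55, adjusted p = 0.00383 for Ftcd, by limma). Values are the authors' normalized read counts, here and below. Of the 6 genes, Cyp3a11 lost its HNF4a KO call when a library was left out, without HNF4a KO replicate 2 (adjusted p = 0.109). Cyp3a and Cyp2c genes have close paralogs, and reads shared among them may have been split in ways the files do not state.

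Members also lay at microRNA hairpins. Of 41 microRNA genes with a member within 1 kb of the annotated hairpin start, 24 carry a Mir name. The share of all microRNA genes was not counted. The 41 therefore cannot be set against the 3.1% of all annotated genes with a member at the start. Those of the Mir192 and Mir194-2 pair on chromosome 19 and the Mir200a, Mir200b and Mir429 trio on chromosome 4 are shown because each locus holds several mature RNAs, a choice made after their positions were seen. The mature RNAs are printed from RefSeq with the seed, bases 2 to 8, in capitals.
miR-192-5p: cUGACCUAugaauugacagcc
miR-194-5p: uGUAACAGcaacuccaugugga
miR-200a-3p: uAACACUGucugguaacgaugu
miR-200b-3p: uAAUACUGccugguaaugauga
miR-429-3p: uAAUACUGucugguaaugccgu

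The seed AAUACUG was shared by miR-200b-3p and miR-429-3p, while the seed of miR-200a-3p was AACACUG. Both replicates of C/EBPα were present at 3 stages at the members beside Mir192 and Mir194-2, and at 4 stages at those beside the trio. A hairpin start is not the start of the primary transcript, and the RNA files were not read for microRNA levels.

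The HNF4α lists differ in quality in ways that bear on every count below. The 2 E18.5 lists stood apart: 35.6% and 46.0% of their peaks touched a peak of the other replicate, against 71.2% to 91.8% in the E15.5, P14 and P60 lists. Of the E18.5 regions, 53.7% were bound at that stage alone. These E18.5-only regions came within 1 kb of a gene start in 1.11% of cases, and C/EBPα peaks touched at most 1.0% of their centres in any list. Results are therefore also given with E18.5 not required, a choice made after seeing the data. The P0.5 lists were identical and were counted as 1, which left 9 HNF4α lists of 21262 to 53278 peaks. Normalized RNA totals were 13448347 to 25992243 per library. Skeletal muscle markers summed to 642958 and 265 in the HNF4a KO libraries, against 114 to 1291 in CEBPa KO and 79 to 199 in WT libraries. Hnf4a itself was at 1238 and 2444 in HNF4a KO livers, at 2492, 2530 and 4510 in CEBPa KO livers and at 9098, 4948 and 6718 in WT livers (HNF4a KO log2 change -1.95 ± 0.45 SE, adjusted p = 0.033). That call was lost without HNF4a KO replicate 1 (adjusted p = 0.44), without WT replicate 1 (0.142) and without WT replicate 3 (0.0879).

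Among the 63925 merged regions, binding at every stage was the fifth most frequent pattern. It followed 11755 regions bound at E15.5 only, 10028 at P60 only, 9860 at E18.5 only and 6231 at all stages but E18.5. Members held 17.9% of the E15.5 regions, 32.1% of the E18.5, 27.6% of the P0.5, 24.8% of the P14 and 16.7% of the P60 regions. A single other missing stage was far rarer than a missing E18.5: 139 regions lacked E15.5 alone, 368 lacked P0.5, 350 lacked P14 and 349 lacked P60. Of the 6231 regions that lacked E18.5, 3314 (53.2%) held a peak of 1 E18.5 replicate. With E18.5 not required the set grew to 11989 regions.

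**Figure D1:**
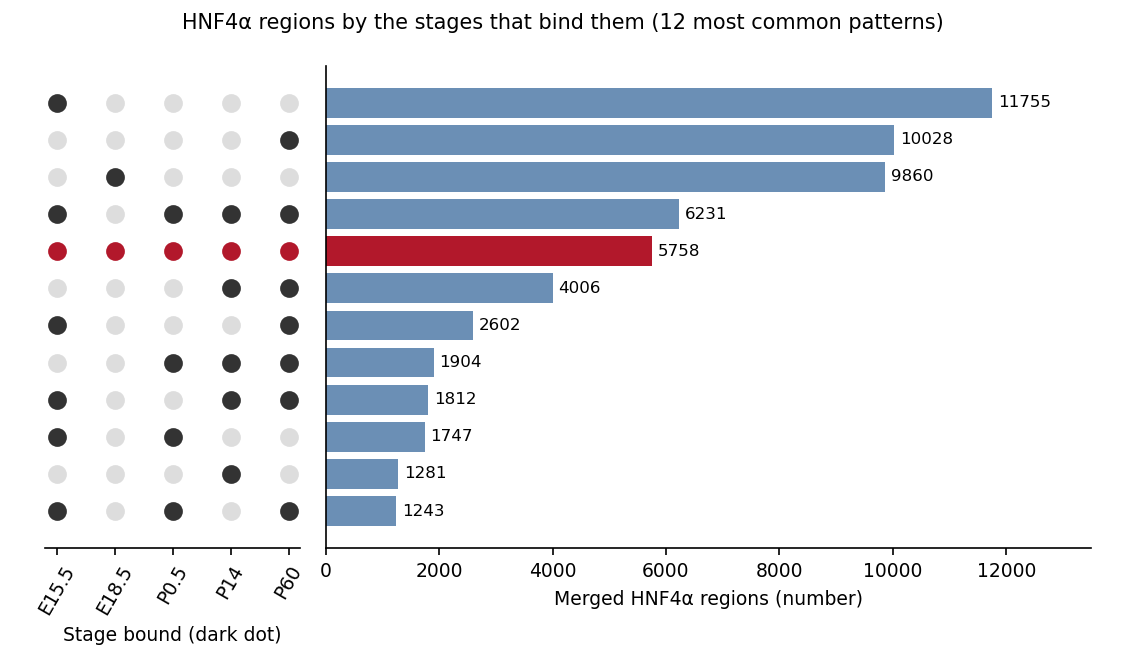
Number of merged HNF4α regions (horizontal axis) for the 12 most common combinations of stages; dark or red dots at the left mark the stages bound, and red marks the regions bound at every stage. The 5758 members stand just below the 6231 regions that lacked E18.5 alone.

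The members were mostly a single shared site and wider than the other HNF4α regions. Their median width was 1219 bp, with the middle part of the distribution between 1087 and 1575.8 bp, against a median of 782 bp for the other HNF4α regions. In 5000 members (86.8%) each stage contributed exactly 1 region. Of these, 4981 (99.6%) had at least 200 bp covered at all 5 stages, with a median of 441 bp, and 12 had no base in common. Regions just outside the rule were of similar size, with a median of 1147 bp for those that lacked E18.5. HNF4α peaks in members were wider than the peaks of the same list elsewhere in all 9 lists. The medians were 561 and 558 bp in members at E15.5, against 420 and 433 bp elsewhere. At P14 they were 1043 and 937 bp in members and 882 and 776 bp elsewhere. The smallest gap was at E18.5, with 382 and 366 bp in members and 355 and 335 bp elsewhere. Since a wider peak overlaps others more easily, width and membership are linked by construction.

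The albumin and factor IX promoters illustrate how the lists lined up. Alb encodes albumin, the main serum protein, and its start lay in a 996-bp member at chr5:90889279-90890274 (mm9). Peaks covered 500 and 575 bp of it at E15.5, 426 and 199 bp at E18.5, 982 bp at P0.5, 882 and 919 bp at P14 and 642 and 784 bp at P60. F9 encodes coagulation factor IX, and its start lay in a 1064-bp member at chrX:57252078-57253141. There the covered lengths were 469 and 404 bp at E15.5, 318 and 273 bp at E18.5, 1064 bp at P0.5, 792 and 809 bp at P14 and 516 and 678 bp at P60. At both promoters the E18.5 peaks were narrow and the P0.5 peak spanned nearly the whole region. All 10 C/EBPα lists had a peak in each of these regions.

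A broad member of 4978 bp lay inside Hnf4a, at chr2:163363097-163368074, with its centre 33042 bp downstream of the start that the gene table gives. HNF4α peaks covered 2191 and 2568 bp of it at E15.5, 996 and 417 bp at E18.5, 3370 bp at P0.5, 3661 and 3975 bp at P14 and 4302 and 4636 bp at P60. Coverage was thus higher in each postnatal list than in any embryonic list. Peaks of the postnatal lists were wider in general, with medians of 579 to 1009 bp against 337 to 452 bp in embryonic lists. The part of peak width in this order was not tested. C/EBPα was present there at all 5 stages, with 1 to 5 peaks per list. No HNF4α region of any stage lay at the annotated Hnf4a start, the nearest being 15206 bp away. Only that start was examined, and any other start of the gene was not.

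Members lay closer to gene starts than the other HNF4α regions. Within 1 kb of the start of any gene there were 977 members (17.0%) and 7090 other regions (12.2%). The centre lay a median of 17.3 kb from a protein-coding start in members and 28.5 kb in other regions. The centre lay outside protein-coding genes and over 10 kb from a protein-coding start in 28.1% of members and 37.7% of other regions. It lay inside a protein-coding gene and over 1 kb from such a start in 50.3% of members and 45.4% of other regions. The E18.5-only regions contributed to these gaps, with 73.2% in the first group, 22.0% in the second and a median distance of 119.2 kb. Regions bound at P60 only had 31.3% and 51.2%, and those bound at E15.5 only had 32.1% and 53.9%. Regions that lacked E18.5 alone were the nearest to starts, with 20.8% within 1 kb, so closeness to starts did not separate the members from them. The X chromosome held 0.851% of members and 3.64% of other regions, or 0.05 members per protein-coding gene, against 0.17 to 0.37 on the autosomes. E18.5-only regions contributed to the share of other regions on X, at 9.59%, yet those bound at P60 only were also at 2.1%.

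Members were mostly scattered, with some dense stretches. Neighbouring members lay a median of 119.7 kb apart, and 1181 (20.5%) had another within 10 kb. The highest density was 8 members in 100 kb, reached near Rxra on chromosome 2, which encodes the retinoid X receptor α, and at a locus on chromosome 18. Counting members inside a gene or within 10 kb of it, Fgfr2, a fibroblast growth factor receptor, had 9, Nedd4l, a ubiquitin ligase, and Pard3, a polarity protein, had 8 each, and Arhgap26 had 7. Long genes have more room for members, and the Fgfr2 model of the gene table spans 3009.1 kb, against 330.1 to 774.8 kb for the other 3. Gm20388 had 22, but its model spans 4434.9 kb and its RNA value was 0 in all libraries. RNA of the other 4 genes did not pass the test in either knockout. Fgfr2, for instance, was at 444 and 587 in HNF4a KO livers, at 593, 310 and 527 in CEBPa KO livers and at 677, 696 and 689 in WT livers (adjusted p = 0.54 and 0.491).

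A few members were very wide. Only 11 exceeded 5 kb, and all 10 C/EBPα lists touched 8 of these, against 1611 of all members (28.0%). Whole regions were counted here, and a wider region has more room for a peak, so width and these counts are linked. The 5 widest were chr6:47686949-47716834 (29886 bp), chr1:90169835-90189467 (19633 bp), chrX:120771985-120782665 (10681 bp), chrX:121305510-121316148 (10639 bp) and chrX:121296379-121305265 (8887 bp). The nearest gene starts were those of AC166252.1, Trpm8, Gm14950 and, for the last pair, Vmn2r121. The ninth widest, at chr15:85561229-85566776 (5548 bp), covered the start of Ppara, which encodes the fatty acid receptor PPARα. Whether repeats or collapsed sequence contribute to the widest regions was not tested.

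C/EBPα peaks were more frequent at the members than at other HNF4α regions at every stage. To remove the effect of width, each region was reduced to a 200-bp window at its centre. At E15.5 the 2 C/EBPα lists touched 29.4% and 23.7% of member windows, against 11.1% and 8.9% of the windows of other HNF4α regions. At E18.5 these shares were 74.3% and 67.8% of members and 37.9% and 31.9% of others. At P0.5 they were 75.1% and 76.1% of members and 37.4% and 39.2% of others. At each of these 3 stages the share in members was well above that in other regions. At P14 C/EBPα touched 65.4% and 66.9% of members and 29.5% and 30.8% of others, and at P60 59.2% and 75.4% of members and 30.2% and 41.3% of others. The other regions include the 9860 bound at E18.5 only, which C/EBPα touched in at most 1.0%. The number of C/EBPα peaks moved with these shares, with 16900 and 13434 peaks at E15.5 and 40636 to 121624 later, so stages are not compared with each other.

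Over the 10 C/EBPα lists the share was 61.3% ± 19.2 in members and 29.8% ± 11.2 in other regions (SD). The difference was 31.5 ± 8.3 percentage points, higher in members in 10 of 10 lists (exact paired sign-flip test, 2-sided, p = 0.00195, the smallest possible, adjusted p = 0.0026 over 4 comparisons). Against regions bound at E15.5 only the difference was 43.4 points, and against those bound at P60 only 26.7 points, each in 10 of 10 lists (exact test, adjusted p = 0.0026). Without the regions bound at E18.5 only, the other regions had 35.8% ± 13.5, and the difference was 25.5 ± 6.2 points. Regions bound at all stages but E18.5 had 54.3% ± 18.1, the share closest to that of the members among the classes compared, with a difference of 7.0 ± 2.6 points. Members were higher in 10 of 10 lists in both of these comparisons, which were added after seeing the data (exact test, adjusted p = 0.00234 over 6 comparisons). Regions bound at P14 and P60 only were 17.3 points lower than members on average, with 8 of 10 lists higher in members (exact test, adjusted p = 0.00781). Both exceptions were the P60 lists, where members had 59.2% and 75.4% and the P14 and P60 regions had 63.8% and 76.0%. The 2 lists of a stage are not fully independent, and over 5 stage means the smallest p possible is 0.0625, so none of the first 4 comparisons passed there (adjusted p = 0.0833, 0.0833, 0.125 and 0.0833). With E18.5 not required the difference from other regions was 30.8 points. With E18.5 required, as in the main set, the difference was 16.2 points within 1 kb of gene starts and 34.4 points farther away.

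**Figure D2:**
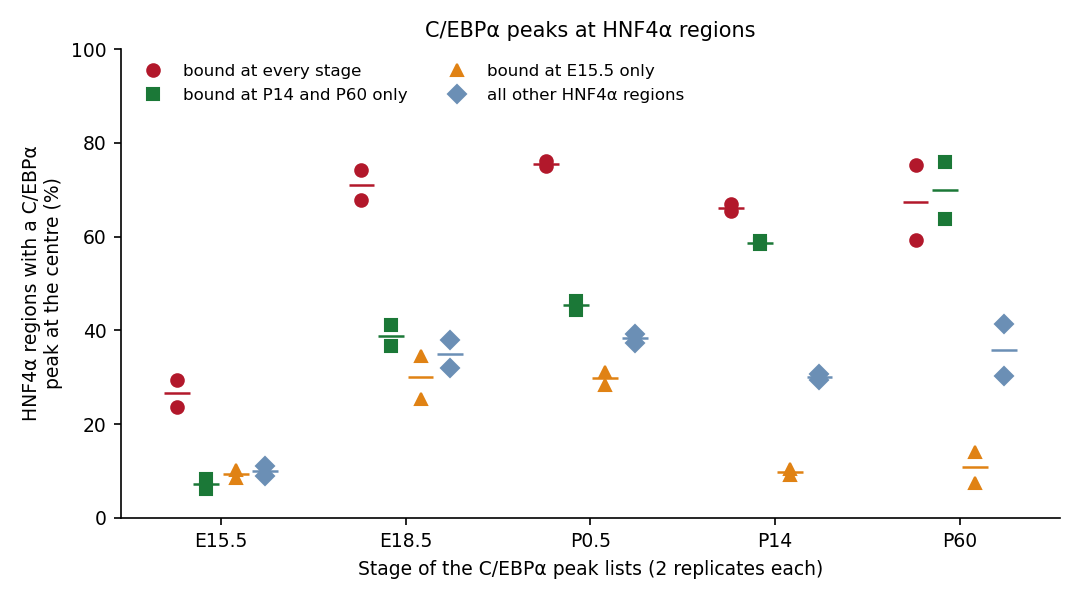
Share of 200-bp windows at the centre of HNF4α regions touched by a C/EBPα peak (vertical axis, %), for each C/EBPα list by stage; points are replicates and short lines their means, and orange marks regions bound at E15.5 only. Regions bound at every stage (red) lie above all other HNF4α regions (blue, which include the green and orange ones) in 10 of 10 lists, and below regions bound at P14 and P60 only (green) at P60.

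Taking C/EBPα as present at a stage when both replicates had a peak in the region, 5030 members (87.4%) held it at some stage. All 5 stages held it at 1604 members (27.9%), against 7.15% of other HNF4α regions, and no stage held it at 728 members (12.6%), against 50.9% of others. These counts use whole regions, and members were the wider ones. In the central 200-bp window the shares were 22.4% of members and 6.09% of others for all 5 stages, and 18.1% and 54.0% for none. In whole regions the largest group, 1710 members (29.7%), lacked C/EBPα at E15.5 and held it at the 4 later stages. C/EBPα first appeared at E18.5 in 2807 members (48.7%), at P0.5 in 452, at P14 in 51 and at P60 in 55. Of the 1665 members that held it at E15.5, 51 lacked it at P60. The E15.5 C/EBPα lists were also the shortest, as given above, and the part of list size in these counts was not tested.

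RNA of genes with a member at the start fell in both knockouts more often than RNA of genes in general. A gene was counted when a member came within 1 kb of its annotated start, which gave 1164 genes, of which 958 passed the filter on low values. In the HNF4a KO 159 of these were lower (16.6%) and 5 higher (0.522%), beside 3.17% lower and 1.54% higher over all 17771 genes tested. In the CEBPa KO 113 were lower (11.8%) and 4 higher (0.418%), beside 2.86% lower and 0.883% higher over all genes. The median log2 change of genes with a member at the start was -0.63 in the HNF4a KO and -0.31 in the CEBPa KO, against 0.02 and 0.03 over all genes. With libraries scaled to equal totals the CEBPa KO median at members turned to 0.19, beside 0.53 over all genes. Both comparisons used the same WT libraries. In whole liver, fewer cells of a type and less RNA per cell cannot be told apart. Hepatocyte plasma protein markers summed to 1385563 and 1927369 in HNF4a KO libraries and to 332009 to 1229663 in CEBPa KO libraries, against 2654567 to 4548689 in WT libraries. Alb alone made up 430946 and 863323 of these sums in HNF4a KO libraries and 1491169 to 3098691 in WT libraries. Of the 19 genes of that list, 0 were called lower and 2 higher in the HNF4a KO. In the CEBPa KO 5 were lower and 1 higher, and 6 of the 19 had a member at the start. Stellate cell markers summed to 98639 and 41438 in HNF4a KO libraries, to 14757 to 24526 in CEBPa KO libraries and to 14331 to 21760 in WT libraries. Erythroid markers summed to 3802165 and 2420137 in HNF4a KO libraries, to 803809 to 1400531 in CEBPa KO libraries and to 676988 to 2159694 in WT libraries. The part of these shifts in the result was not tested.

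The number of calls depended on single libraries, while the share called lower at members stayed above that of all genes in each of the fits named here. Without HNF4a KO replicate 1, the library with the muscle RNA, 66 genes with a member at the start were lower (6.93%, against 1.22% of all genes). Without HNF4a KO replicate 2 there were 85 (8.91% against 1.76%), and without WT replicate 1 there were 86 (9.04% against 1.63%). In the CEBPa KO comparison, 66 were lower without WT replicate 1 (6.94% against 1.45%). With equal library totals 79 genes with a member at the start were lower and 14 higher in the CEBPa KO (8.25% and 1.46%), against 1.82% lower and 2.67% higher over all genes.

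The share of genes that fell differed by the class of region at the start and was highest at members. In the HNF4a KO 4.82% of the 5995 tested genes with another HNF4α region at the start were lower, and 1.06% of the 10818 with none. In the CEBPa KO these shares were 4.54% and 1.15%. Genes at regions that lacked E18.5 alone stood between, with 8.37% of 1303 lower in the HNF4a KO and 6.83% in the CEBPa KO. At regions bound at P14 and P60 only these shares were 7.2% and 7.94%. They were 3.97% and 4.61% at regions bound at P60 only, and 2.23% and 1.19% at those bound at E15.5 only. With E18.5 not required, 268 of 2261 genes (11.9%) were lower in the HNF4a KO and 202 (8.93%) in the CEBPa KO. Genes with a member at the start had a median WT value of 612.2, against 244.7 for all genes, so the classes were also compared within bands of the mean over all 8 libraries. In the band from 100 to below 1000, 17.6% of genes with a member at the start were lower in the HNF4a KO, 4.84% of those with another HNF4α region and 1.31% of those with none. At 1000 or more the shares were 19.2%, 6.49% and 1.72%, and below 100 they were 8.86%, 2.76% and 0.599%. The order of the classes was the same in all 3 bands.

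**Figure D3:**
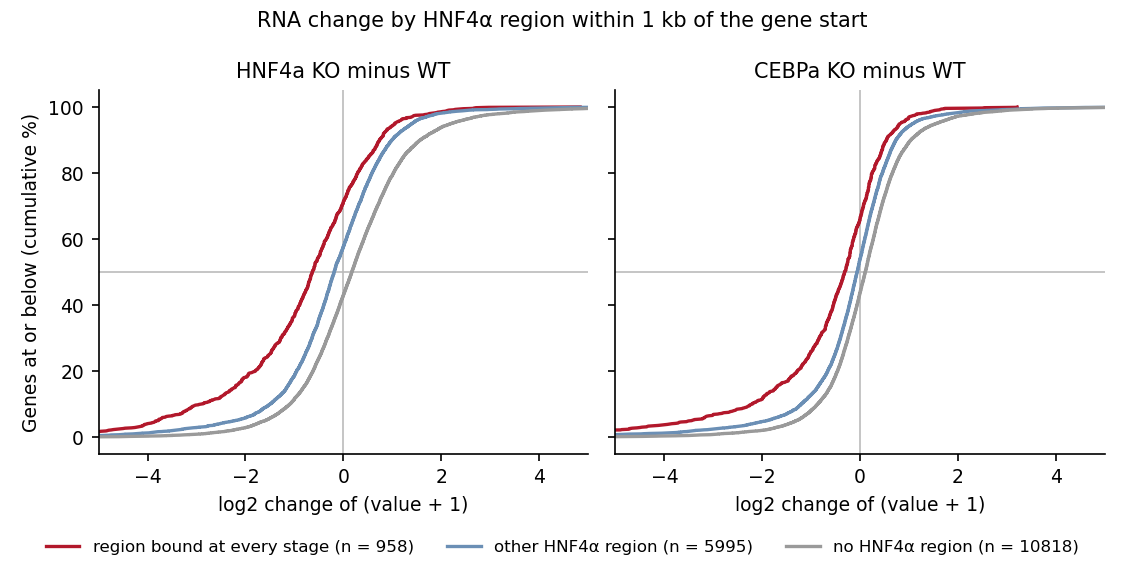
Cumulative share of tested genes (vertical axis, %) at or below each log2 change of (value + 1) in the HNF4a KO (left) and the CEBPa KO (right), both against WT, by the HNF4α region within 1 kb of the gene start (bound at every stage in red, another region in blue, none in grey). The red curve lies to the left of the others, with medians of -0.63 and -0.31.

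Calls were also more frequent where C/EBPα was present at more stages. Among genes with a member at the start, 52 of 226 (23.0%) were lower in the HNF4a KO where C/EBPα was at that member at all 5 stages, 97 of 618 (15.7%) where it was at 1 to 4 stages and 10 of 114 (8.77%) where it was at none. In the CEBPa KO the counts were 46 (20.4%), 63 (10.2%) and 4 (3.51%). The median WT value was 972.5, 542.8 and 343.5 in these 3 groups, so level moved with the number of stages and its part in the result was not tested. Protein-coding genes with 1 member inside or within 10 kb were lower in the HNF4a KO in 6.61% of cases, those with 2 in 14.3%, those with 3 or 4 in 14.2% and those with 5 or more in 14.7% (5 of 34), against 1.83% of those with none. Gene span grew with that number, with a median of 13.2 kb for no member and 228.1 kb for 5 or more.

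Most of the genes with a member at the start that fell furthest in the HNF4a KO encode liver enzymes, transporters and plasma proteins. Serpina3k, a serine protease inhibitor of plasma, was at 104 and 60 in HNF4a KO livers, at 94, 31 and 219 in CEBPa KO livers and at 53144, 44680 and 4142 in WT livers. Its log2 change was -8.06 ± 1.02 in the HNF4a KO (SE, adjusted p = 0.00127) and -7.94 ± 0.91 in the CEBPa KO (adjusted p = 0.000565). No knockout library reached the lowest WT library, although the WT libraries themselves spread more than 10-fold. F9 was at 13 and 50 in HNF4a KO livers, at 10, 11 and 15 in CEBPa KO livers and at 1297, 1041 and 1164 in WT livers (HNF4a KO -5.44 ± 0.58, adjusted p = 0.000614). Cyp3a25 was at 7 and 19 in HNF4a KO livers, at 5, 0 and 11 in CEBPa KO livers and at 1616, 1188 and 1093 in WT livers (HNF4a KO -6.66 ± 0.92, adjusted p = 0.00208). Both genes were thus nearly absent from every knockout library.

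The cytochromes P450 Cyp4a14, Cyp2a22 and Cyp2a12 fell in both knockouts, with log2 changes of -6.21, -5.72 and -5.40 in the HNF4a KO and -5.42, -5.74 and -4.33 in the CEBPa KO. Gm4952, a predicted gene, had log2 changes of -5.50 in the HNF4a KO and -3.16 in the CEBPa KO. Entpd8, a canalicular nucleotidase, passed the test in the HNF4a KO but not in the CEBPa KO. It was at 9 and 37 in HNF4a KO livers, at 577, 214 and 508 in CEBPa KO livers and at 1327, 907 and 798 in WT livers, with log2 changes of -5.66 (adjusted p = 0.000614) and -1.31 (adjusted p = 0.285). Slc10a5, a member of the bile acid transporter family, had a log2 change of -6.68 in the HNF4a KO (adjusted p = 0.00204) and of -2.62 in the CEBPa KO (adjusted p = 0.133). The difference between the knockouts was not tested. These 9 falls in the HNF4a KO passed the test under every alternative run. C/EBPα was present at all 5 stages at the members of Cyp2a22, Gm4952, F9 and Cyp2a12 and at 4 stages at the other 5. Serpina3 and Cyp2a genes have near-identical copies, so the values of single copies are uncertain.

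**Figure D4:**
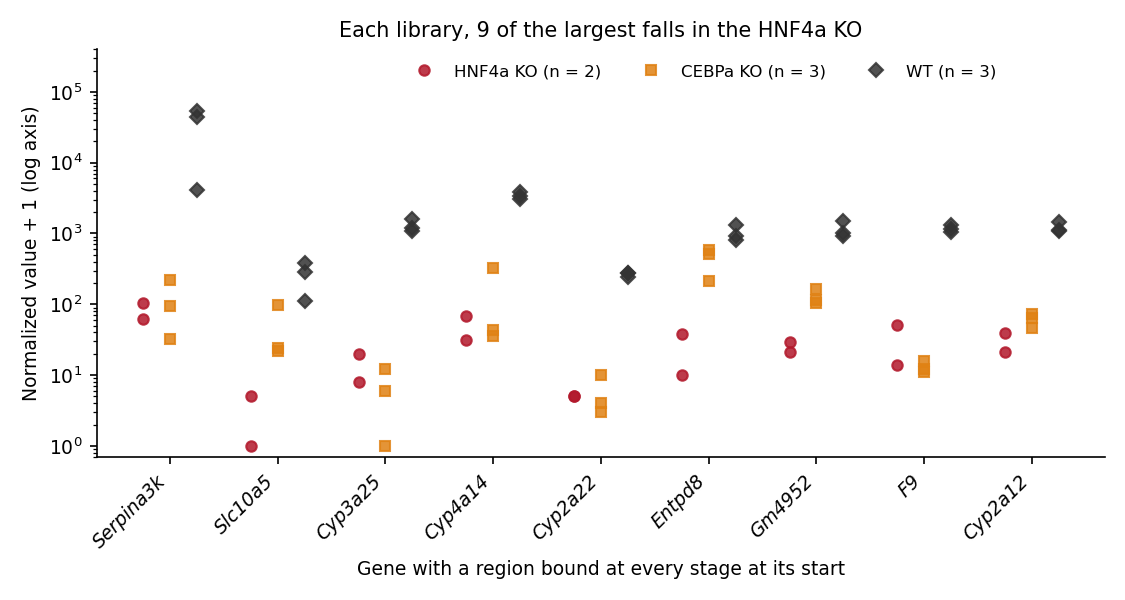
Normalized read counts + 1 (log axis) of 9 genes with a region bound at every stage at the start that are among those that fell furthest in the HNF4a KO; each point is a library of the HNF4a KO, CEBPa KO or WT livers. In all 9 genes both HNF4a KO libraries lie below all 3 WT libraries. The genes were chosen for these falls, so that order largely follows from the choice and is no separate result.

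Only 5 genes with a member at the start were called higher in the HNF4a KO. Tnfrsf9, a receptor of activated lymphocytes, was at 146 and 89 in HNF4a KO livers, at 2, 0 and 4 in CEBPa KO livers and at 4, 0 and 12 in WT livers (log2 change 4.84 ± 1.18 SE, adjusted p = 0.0422). Ndufa4l2, a mitochondrial protein induced by hypoxia, was at 3864 and 5447 in HNF4a KO livers, at 309, 234 and 944 in CEBPa KO livers and at 1039, 1306 and 501 in WT livers (2.38 ± 0.59, adjusted p = 0.0439). The HNF4a KO libraries lay above all others in both genes. The other 3 were Ang, a secreted ribonuclease, Cd63-ps, a pseudogene, and Ifitm3, an interferon-induced membrane protein, with log2 changes of 1.74, 1.65 and 1.48 (adjusted p = 0.0487, 0.0317 and 0.05 after rounding). None of the 5 calls held when either HNF4a KO library was left out: the adjusted p without replicate 1 was 0.396 for Tnfrsf9, 0.208 for Ndufa4l2, 0.338 for Ang, 0.389 for Cd63-ps and 0.191 for Ifitm3. Macrophage markers summed to 27810 and 32857 in HNF4a KO libraries, to 5796 to 22871 in CEBPa KO libraries and to 15501 to 17265 in WT libraries, and their part in these rises was not tested. Among the 9 falls and 5 rises described, Ndufa4l2 and Ifitm3 are the only genes whose member held C/EBPα at no stage. Reads of Cd63-ps cannot be told apart from those of its parent gene Cd63 where their sequences match.

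Members lay at the starts of hepatocyte genes of most functions, and at none of the starts of several other lists. Among all annotated genes 3.1% had a member at the start, as did 4.12% of protein-coding genes and 11.2% of protein-coding genes with a WT mean of at least 1000. The share was 50.0% for blood coagulation (11 of 22), 8 of 25 genes for fatty acid oxidation and ketogenesis, 31.6% for plasma carriers (6 of 19) and 31.2% for liver transcription factors (10 of 32). It was 28.6% for the urea cycle and amino acid breakdown (8 of 28), 27.8% for glucose and glycogen metabolism (5 of 18), 25.7% for cytochromes P450 and xenobiotic metabolism (9 of 35) and 23.8% for bile acid genes (5 of 21). Lower shares were found for apolipoproteins (4 of 23) and complement (2 of 18), and 1 gene each for lipid synthesis (of 25) and epithelial junctions (of 19). No member lay at the start of any of 16 fetal liver genes, 28 cell cycle genes, 26 ribosomal protein genes, or markers of erythroid cells (17), macrophages (12), stellate cells (13), endothelial cells (13), skeletal muscle (14) and neurons (13). A single list of 12 to 28 genes is too short to tell none from the 4.12% of protein-coding genes. Counted inside the gene or within 10 kb, 19.4% of protein-coding genes had a member. So did 4 of the 16 fetal liver, 5 of the 17 erythroid and 5 of the 28 cell cycle genes. Ribosomal protein genes had 3 of 26, and endothelial and neuron markers 1 of 13 each. Macrophage, stellate cell and skeletal muscle markers had none there either. These lists were chosen with earlier results of these data known and are described without a test. No listed gene with a member at the start was called higher in either knockout.

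**Figure D5:**
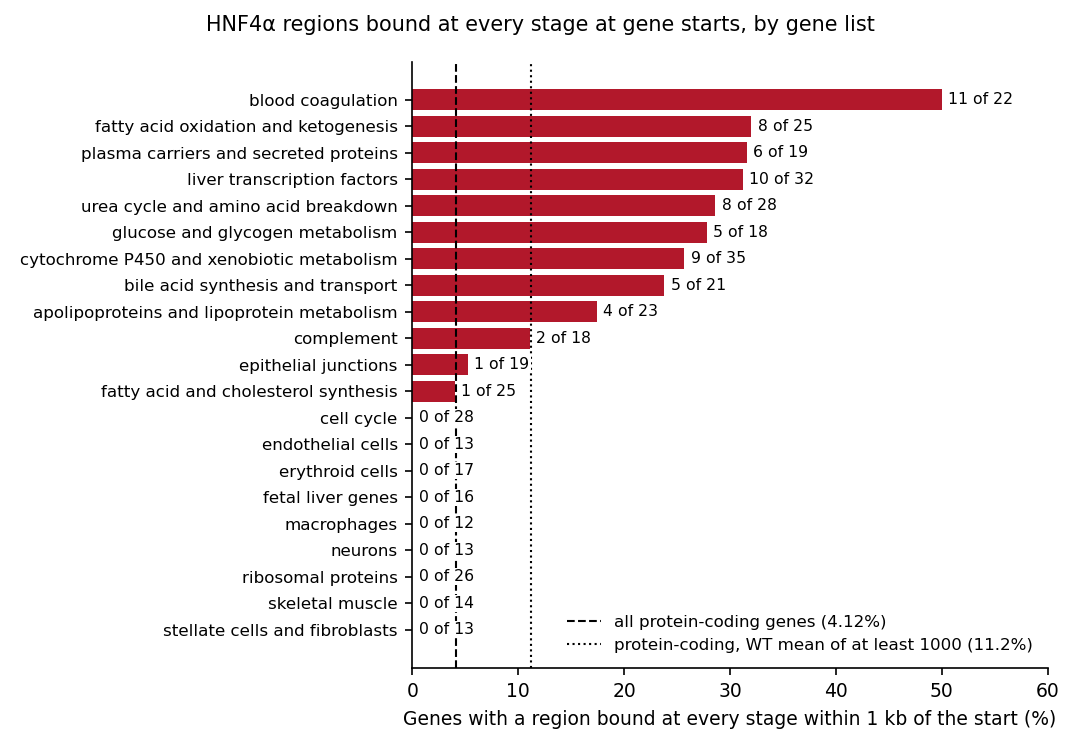
Share of the genes of each list (horizontal axis, %) with a region bound at every stage within 1 kb of the start, with the counts beside the bars; the dashed line marks all protein-coding genes (4.12%) and the dotted line those with a WT mean of at least 1000 (11.2%). Blood coagulation has the highest share (50.0%), and 9 lists, the bottom ones, have none.

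Liver transcription factors with a member at the start included Cebpb, Klf15, Nr1h4, Nr1i2, Nr1i3, Nr5a2, Ppara and Rxra. Of 10 in all, 4 nuclear receptors were lower in the HNF4a KO and 2 in the CEBPa KO, against 4 and 2 of the 22 listed factors without a member at the start. Nr1i2, which encodes the xenobiotic receptor PXR, was at 55 and 97 in HNF4a KO livers, at 465, 304 and 750 in CEBPa KO livers and at 1372, 872 and 1048 in WT livers (HNF4a KO -3.86 ± 0.45 SE, adjusted p = 0.000871, CEBPa KO -1.19, adjusted p = 0.172). Its start lay in the member at chr16:38294377-38296079. Nr1h4, which encodes the bile acid receptor FXR, was at 93 and 166 in HNF4a KO livers, at 133, 100 and 140 in CEBPa KO livers and at 1343, 1285 and 895 in WT livers. It fell in both knockouts to a like degree (log2 change -3.21 and -3.22), and both calls held in every alternative run. Nr1i3, the xenobiotic receptor CAR, had log2 changes of -4.74 in the HNF4a KO and -4.46 in the CEBPa KO (adjusted p = 0.0134 and 0.0107). Ppara had -3.09 in the HNF4a KO (adjusted p = 0.0275). Leaving out HNF4a KO replicate 1 ended the HNF4a KO calls of Nr1i3 (adjusted p = 0.112) and Ppara (0.278), as did leaving out HNF4a KO replicate 2, WT replicate 1 or WT replicate 3. The CEBPa KO call of Nr1i3 was lost without WT replicate 1 (adjusted p = 0.0522) or WT replicate 3 (0.0502).

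In the coagulation list 6 of 11 genes with a member at the start were lower in the HNF4a KO and 7 in the CEBPa KO, against 2 and 4 of the 11 without one. Besides F9, F13b, the carrier subunit of factor XIII, was at 67 and 139 in HNF4a KO livers, at 413, 105 and 633 in CEBPa KO livers and at 2569, 2095 and 3747 in WT livers (log2 change -4.80 and -3.17). F10, factor X, was at 1156 and 848 in HNF4a KO livers, at 1295, 2319 and 2104 in CEBPa KO livers and at 6968, 8449 and 6367 in WT livers (-2.86 and -1.96). In both genes all knockout libraries lay below all WT libraries. F7, factor VII, had log2 changes of -3.33 and -3.40, and its HNF4a KO call was lost when any 1 of the HNF4a KO or WT libraries was left out, with the adjusted p at 0.182 without HNF4a KO replicate 1. Its CEBPa KO call was lost without WT replicate 2 (adjusted p = 0.067) or WT replicate 3 (0.0514), as was that of F13b without WT replicate 1 (0.0556) or WT replicate 3 (0.0514). Of the complement genes, 1 of 2 with a member at the start was lower in each knockout, against 10 and 5 of the 16 without one. C8g, a subunit of the membrane attack complex, was lower in the HNF4a KO (-2.53, adjusted p = 0.0074), a call lost without HNF4a KO replicate 2 (0.0724). C4b, complement component 4, passed in the CEBPa KO (-5.91, adjusted p = 0.00621) and not in the HNF4a KO (-4.02, adjusted p = 0.0649).

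All 5 bile acid genes with a member at the start were lower in the HNF4a KO, and 3 in the CEBPa KO. Most of the list did likewise, with 11 of the 15 tested genes without one lower in each knockout. Slc10a1, the basolateral bile acid importer NTCP, was at 673 and 323 in HNF4a KO livers, at 48, 44 and 48 in CEBPa KO livers and at 4981, 5286 and 7541 in WT livers. The log2 change was -3.64 ± 0.39 in the HNF4a KO (SE, adjusted p = 0.000614) and -6.94 ± 0.35 in the CEBPa KO (adjusted p = 5e-06), and its start lay in the member at chr12:82068659-82069745. The 3 groups did not overlap. Slc27a5, the bile acid CoA ligase, had log2 changes of -4.96 in the HNF4a KO and -4.73 in the CEBPa KO, and Acox2, which shortens the bile acid side chain, had -4.11 and -4.22. Abcc2, the canalicular exporter MRP2, had log2 changes of -2.96 in the HNF4a KO (adjusted p = 0.0247) and -1.02 in the CEBPa KO (adjusted p = 0.485). Its HNF4a KO call was lost without HNF4a KO replicate 1 (adjusted p = 0.243), HNF4a KO replicate 2 (0.0847), WT replicate 1 (0.0796) or WT replicate 3 (0.083).

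All 9 genes of the P450 and xenobiotic list with a member at the start were lower in the HNF4a KO and 7 in the CEBPa KO, beside 16 of the 25 tested genes without one in each knockout. Ces2a, a carboxylesterase, was at 56 and 44 in HNF4a KO livers, at 65, 9 and 98 in CEBPa KO livers and at 1856, 1657 and 1384 in WT livers (adjusted p = 0.0043 in the HNF4a KO and 0.00146 in the CEBPa KO). Cyp2c37, which oxidizes arachidonic acid, was at 38 and 44 in HNF4a KO livers, at 28, 6 and 2 in CEBPa KO livers and at 660, 921 and 2101 in WT livers (-4.70 and -7.00). Both were low in every knockout library. The HNF4a KO call of Cyp2c37 was lost without HNF4a KO replicate 1 (adjusted p = 0.0977).

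The 4 amino acid breakdown genes named here had larger estimated changes in the CEBPa KO, though the difference between knockouts was not tested. Of 8 genes of that list with a member at the start, 5 were lower in the HNF4a KO and 6 in the CEBPa KO, beside 8 and 12 of the 20 without one. Hpd, which oxidizes a tyrosine breakdown product, was at 1014 and 716 in HNF4a KO livers, at 23, 30 and 18 in CEBPa KO livers and at 3879, 5179 and 3219 in WT livers (log2 change -2.23 and -7.38). Hal, which deaminates histidine, was at 222 and 109 in HNF4a KO livers, at 9, 13 and 6 in CEBPa KO livers and at 1279, 1019 and 840 in WT livers (-2.72 and -6.70). In both genes the 3 groups did not overlap. Hgd, the next step of tyrosine breakdown, had log2 changes of -3.78 and -6.27, and Haao, of tryptophan breakdown, -2.86 and -4.06. The HNF4a KO calls of Hpd and Hal were lost without HNF4a KO replicate 2 (adjusted p = 0.0767 and 0.108), that of Hpd also without HNF4a KO replicate 1 (0.0518), that of Hal also without WT replicate 1 (0.0775), and that of Hgd without HNF4a KO replicate 1 (0.0643). C/EBPα was present at all 5 stages at the members of these 4 genes.

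Of 5 glucose and glycogen genes with a member at the start, 3 were lower in each knockout, beside 5 of the 13 without one in the HNF4a KO and 10 in the CEBPa KO. They were Fbp1, the gluconeogenic fructose bisphosphatase, Slc2a2, the glucose transporter GLUT2, and Ppp1r3b, a glycogen-targeting phosphatase subunit. Fbp1 was at 2172 and 1469 in HNF4a KO livers, at 886, 896 and 3950 in CEBPa KO livers and at 20838, 15405 and 14386 in WT livers (log2 change -3.22 and -3.51). Log2 changes were -1.75 and -1.60 for Slc2a2 and -1.68 and -3.22 for Ppp1r3b. The HNF4a KO calls of all 3 were lost without HNF4a KO replicate 1 (adjusted p = 0.0725, 0.131 and 0.281 in the same gene order), HNF4a KO replicate 2 (0.0871, 0.107 and 0.179) or WT replicate 1 (0.053, 0.082 and 0.16), and the CEBPa KO call of Slc2a2 without WT replicate 1 (0.1). The HNF4a KO call of Ppp1r3b was lost as well without WT replicate 2 (0.0608), WT replicate 3 (0.12) or CEBPa KO replicate 1 (0.066). Igfbp1, an insulin-like growth factor binding protein, was at 53705 and 107453 in HNF4a KO livers, at 1774, 1659 and 54292 in CEBPa KO livers and at 54220, 57104 and 64250 in WT livers. CEBPa KO replicate 3 alone lay near the WT level there, and neither comparison passed the test (adjusted p = 0.884 and 0.142).

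Of 8 fatty acid oxidation genes with a member at the start, 2 were lower in the HNF4a KO and 3 in the CEBPa KO, beside 7 and 0 of the 17 without one. Acsl1 and Acadm were lower in both. Acsl1, which activates long-chain fatty acids, was at 5902 and 5290 in HNF4a KO livers, at 4341, 3794 and 7301 in CEBPa KO livers and at 26229, 19689 and 24851 in WT livers. Acadm, the medium-chain acyl-CoA dehydrogenase, was at 2953 and 2623 in HNF4a KO livers, at 2447, 2038 and 2610 in CEBPa KO livers and at 9660, 11393 and 8067 in WT livers. Neither gene overlapped between the knockouts and WT. Their HNF4a KO calls were lost without HNF4a KO replicate 1 (adjusted p = 0.171 for Acsl1 and 0.132 for Acadm), HNF4a KO replicate 2 (0.123 and 0.109) or WT replicate 1 (0.0894 and 0.0665), and that of Acsl1 also without WT replicate 3 (0.0605).

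None of the 6 plasma carriers with a member at the start was called in either knockout. Of the 13 without one, 0 were lower and 2 higher in the HNF4a KO, and 5 lower and 1 higher in the CEBPa KO. Alb was at 430946 and 863323 in HNF4a KO livers, at 670004, 127285 and 559934 in CEBPa KO livers and at 2758855, 1491169 and 3098691 in WT livers. All knockout libraries lay below all WT libraries, but the spread was wide and neither comparison passed (log2 change -1.94 ± 1.69 SE, adjusted p = 0.543, and -2.69 ± 1.51, adjusted p = 0.485). Hpx, the heme carrier hemopexin, had log2 changes of -1.83 and -3.13 (adjusted p = 0.267 and 0.0542). Ttr, the thyroid hormone carrier transthyretin, had -0.89 and 0.00 (adjusted p = 0.345 and 0.997). Of 4 apolipoprotein-list genes with a member at the start, none was called in the HNF4a KO, and Apoc3 and Lcat were lower in the CEBPa KO, beside 3 and 5 of the 19 without one. Apoc3, an inhibitor of lipoprotein lipase, was at 488 and 416 in HNF4a KO livers, at 28, 38 and 62 in CEBPa KO livers and at 1310, 3517 and 384 in WT livers (CEBPa KO -4.87 ± 0.66, adjusted p = 0.00167). Apoa1, the main protein of high-density lipoprotein, was at 115601 and 93355 in HNF4a KO livers, at 61231, 60209 and 145705 in CEBPa KO livers and at 328115, 476652 and 136410 in WT livers (adjusted p = 0.411 and 0.369). The members at these neighbouring starts were chr9:46042907-46044405 for Apoc3 and chr9:46036051-46037354 for Apoa1. The Lcat call (adjusted p = 0.032) was lost without any 1 of 7 libraries, with an adjusted p of up to 0.187 without WT replicate 1.

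A member at the start was not needed for a fall in the HNF4a KO. Baat, which conjugates bile acids, had its nearest member 3446 bp from the start. It was at 10 and 8 in HNF4a KO livers, at 502, 501 and 1778 in CEBPa KO livers and at 1010, 581 and 894 in WT livers (HNF4a KO -6.34 ± 0.56 SE, adjusted p = 0.00026). Otc, a urea cycle enzyme with the nearest member at 12086 bp, was at 43 and 62 in HNF4a KO livers, at 979, 722 and 692 in CEBPa KO livers and at 1280, 1156 and 2185 in WT livers (-4.81 ± 0.39, adjusted p = 0.000171). In both genes the HNF4a KO libraries lay more than 10-fold below every other library. Apob, the structural protein of low-density lipoprotein, at 26534 bp, and Cyp7a1, the rate-limiting enzyme of bile acid synthesis, at 28795 bp, had HNF4a KO log2 changes of -4.96 (adjusted p = 0.00242) and -4.59 (adjusted p = 0.000489). All 4 had another HNF4α region at the start, one that did not meet the rule. G6pc, glucose-6-phosphatase, with the nearest member at 3543 bp, had log2 changes of -4.96 and -3.88, and its HNF4a KO call was lost without HNF4a KO replicate 1 (adjusted p = 0.0685). Its CEBPa KO call was lost without WT replicate 1 (0.0523) or CEBPa KO replicate 1 (0.0501). Cebpa, with the nearest member at 1620 bp, was at 3886 and 4500 in HNF4a KO livers, at 322, 419 and 998 in CEBPa KO livers and at 9999, 9594 and 5511 in WT livers (HNF4a KO adjusted p = 0.299).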

How the data were processed

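ChIP-seq peak lists (mm9) and RNA values of mouse liver were used as deposited. Per the submitters' processing notes, tools included BWA, MACS 1.4, TopHat2, Cufflinks, DESeq and bedtools. The score column of the peak lists deposited by the authors was 0 throughout, so peaks carry position only. The RNA table holds values that the authors normalized and rounded to whole numbers (treated as a score, not raw counts), so no count model was used. The GC fraction per gene in the deposited table was not used.

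Overlap meant at least 1 bp. RNA was tested with limma 3.58.1 (R 4.3.3, trend) on log2(value + 1), in 1 fit of 8 libraries, for the 17771 of 37583 genes that reached 10 in 2 or more libraries, at a Benjamini-Hochberg adjusted p of 0.05. Changes of genes near 0 depend on the added 1. Both scripts were tested on simulated data. C/EBPα shares used an exact paired sign-flip test. Python 3.11.15, numpy 2.4.6 and pandas 2.3.3 did the rest.

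Members and gene lists were chosen with earlier results of these data known. Named genes were the 10 largest falls and up to 10 rises (5 existed) among genes called in the HNF4a KO with a member at the start, up to 4 such genes per list (HNF4a KO calls first, then by size), the 5 genes with most members and 19 known loci; other names came after values were seen. A few genes of this rule are not reported here. Alternatives changed the pseudocount, filter, scaling, overlap, peak width, window and libraries. Library totals of 13448347 to 25992243 limit precision for low genes, and peak depth is unknown.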

Additional observations from a re-analysis of the deposited data

How the results depend on the processing

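The number of regions bound at every stage was 5758, against 3561 with peaks of at least 300 bp only and 11989 with E18.5 not required, a choice made after seeing the data. Leaving out 1 replicate list gave 5767 to 7974. Over 5 stage means the C/EBPα differences were 31.5, 43.4, 17.3 and 26.7 points, with adjusted exact p-values of 0.0833, 0.0833, 0.125 and 0.0833 that cannot pass 0.05 in that design. For genes with a member at the start, leaving out 1 library gave 66 to 207 lower and 0 to 8 higher in the HNF4a KO, and 66 to 146 lower and 0 to 2 higher in the CEBPa KO. The 5 genes higher in the HNF4a KO became 3 with a pseudocount of 0.5, 1 with no filter, 2 with equal library totals, 3 with quantile normalization, 11 with 2 groups only, 11 within 5 kb, 2 where a region covers the start and 13 with E18.5 not required. The 4 higher in the CEBPa KO became 1 with no filter, 14 with equal totals, 2 with 2 groups only, 13 within 5 kb and 8 with E18.5 not required. The 159 lower in the HNF4a KO became 268 with E18.5 not required. The 113 lower in the CEBPa KO became 186 within 5 kb and 202 with E18.5 not required. Replicate numbers did not pair the samples (same-number correlations of -0.23 to 0.19). With the replicate number as a block, 117 were lower and 1 higher in the HNF4a KO, and 95 lower and 1 higher in the CEBPa KO. Of 68 named genes tested, 45 were called in the HNF4a KO and 23 of these in every alternative, and 34 and 26 in the CEBPa KO. None changed sign while called. The cause of these shifts was not tested.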
